A study of Mus musculus with 4 samples.

Results

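The clustered protocadherin genes are 58 neighbouring genes of mouse chromosome 18, annotated in 3 clusters named Pcdha (14 genes), Pcdhb (22 genes) and Pcdhg (22 genes). They were chosen by position and symbol alone, as the genes of these 3 prefixes in a stretch of chromosome 18 (mm10) that runs from just before the start of Pcdha1 (position 36930184) to just past the end of the last Pcdhg constant exon (position 37841873). All 58 lie on the plus strand. Peaks of 4 anti-NR2F1 libraries that overlapped by 1 bp or more were merged, and 47 of 263639 merged regions fell in this interval, of which 9 of 35770 could be compared between genotypes. Of the 58 genes, 57 are annotated as protein coding, among 21951 in all, and Pcdhgb8 is annotated as a polymorphic pseudogene.

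Clustered protocadherins are cell-surface adhesion proteins through which a neuron tells its own branches from those of other cells. Each Pcdha and Pcdhg gene has its own large variable exon, with its own promoter. This exon is spliced to 3 constant exons that the whole cluster shares, whereas Pcdhb genes have no constant exon. In most neurons a few of these promoters are chosen at random per cell, with CTCF and cohesin joining a promoter to a distant enhancer, and the unchosen ones are held silent by DNA methylation. The C-type genes (Pcdhac1, Pcdhac2, Pcdhgc3, Pcdhgc4 and Pcdhgc5), which lie last among the variable exons of their clusters, are exceptions that are used more evenly from cell to cell. NR2F1 (COUP-TFI) is a nuclear receptor that binds AGGTCA repeats and acts in neural development.

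The 4 libraries are single-cell CUT&Tag, in which an antibody against NR2F1 brings the transposase Tn5 to chromatin and each cut site counts as signal. Cells came from embryonic day 10.5 Isl1MN-GFP embryos, in which GFP marks motor neurons, dissected around rhombomere 4 of the hindbrain. The 2 WT libraries pooled 26 and 26 embryos, and the 2 Fam5snv/snv libraries, homozygous for a single-base knock-in at a regulatory element of Gata2, pooled 8 and 16 embryos, so that p-values measure the spread between pools. The sort was opened to GFP-negative cells at its end, and cells were neither clustered nor named here.

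WT replicate 1 stands apart. It had 42168 called peaks against 137996 to 170993 in the other libraries, with 3083946 to 10341894 cut sites per library over 1377 to 2740 barcodes. Peaks were called in each library separately and a library has counts only inside its own peaks, so that a gene listed at 0 had no called peak, and a fold between libraries moves with how wide the peaks were called. Signal is given as CPM, the cut sites of a region per 1000000 cut sites of the library in tested regions, after TMM scaling, and barcodes shared between libraries were at most 0.799% of the smaller library. Promoter regions of the motor neuron markers Isl1, Hoxb1, Tbx20, Chat and Slc18a3 had a called peak in all 4 libraries. So did 5 of 9 markers of other cells, beside 54.9% of all protein-coding genes. NR2F1 signal at a promoter does not identify a cell.

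Most clustered protocadherin promoters had no called NR2F1 peak, and those that did were mainly the C-type ones. A peak within 1 kb of the start was called at 3 of 58 genes in WT replicate 1, 8 in WT replicate 2, 4 in Fam5snv/snv replicate 1 and 9 in Fam5snv/snv replicate 2. The same count over all protein-coding genes was 55.0%, 67.2%, 67.2% and 69.1%, so that the clustered genes fell below it in 4 of 4 libraries, by 54.3 ± 4.37 percentage points (mean ± SD, n = 4). The exact two-sided sign-flip test over libraries gave p = 0.125, the smallest that 4 libraries allow. No peak was called in any library at 47 of the 58 genes.

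The C-type genes were the exception. Of these 5 promoters, a peak was called at 3 in WT replicate 1, 5 in WT replicate 2, 4 in Fam5snv/snv replicate 1 and 5 in Fam5snv/snv replicate 2. The other 53 promoters had 0, 3, 0 and 4 called peaks in the same order. The share of C-type promoters exceeded that of the others by 81.7 ± 15.8 percentage points (SD, n = 4) and did so in 4 of 4 libraries (exact sign-flip test, p = 0.125, again the smallest possible). Counted as cut sites in the regions at these 58 starts, the C-type regions held 68 of WT replicate 1 against 0 at all the others, 375 against 8 in WT replicate 2, 643 against 0 in Fam5snv/snv replicate 1 and 795 against 48 in Fam5snv/snv replicate 2. Their share was thus 100%, 97.9%, 100% and 94.3%, with exact 95% binomial lower bounds of 94.7%, 95.9%, 99.4% and 92.5%. Cut sites were counted only inside called peaks, so that the shares of 100% follow from having no called peak at the other starts. The bounds say nothing about signal outside peaks. They also take cut sites as independent and leave out the spread between libraries. They are too narrow, since 1 barcode of WT replicate 2 held 11 C-type cut sites.

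**Figure D1:**
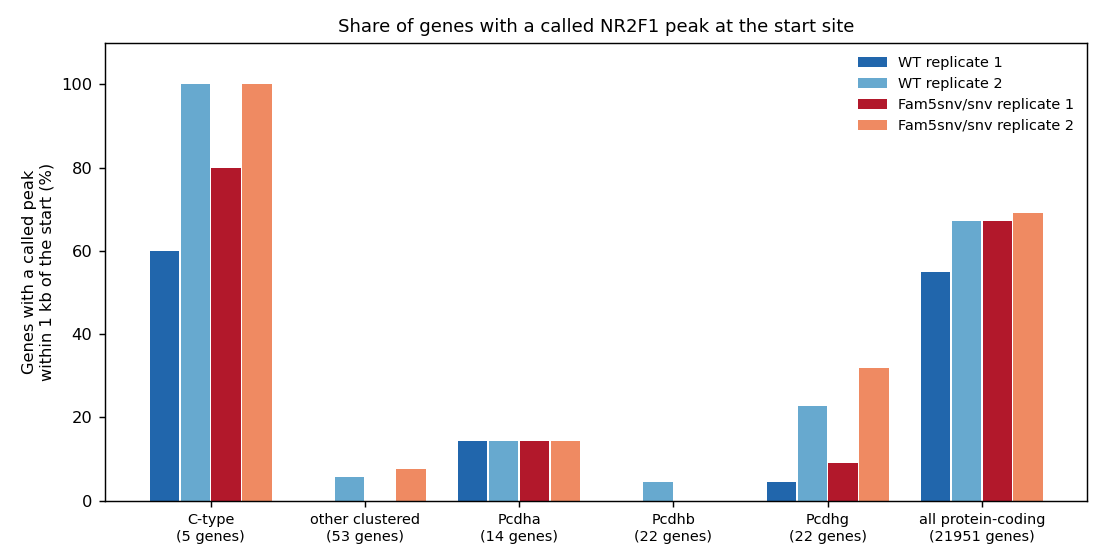
Share of genes (%) with a called NR2F1 peak within 1 kb of the start site, for the 5 C-type and 53 other clustered genes, the 3 clusters and all 21951 protein-coding genes, with 1 bar per library. The C-type bars stand at 60.0% to 100% and those of the other clustered genes at 0% to 7.55%, below the 55.0% to 69.1% of all protein-coding genes.

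The C-type promoters also differed from the rest in base composition, a feature that took no part in choosing the genes. In the 500 bp on either side of the start, G and C made up 50.4% to 58.0% of bases at the 5 C-type starts and 33.8% to 49.95% at the other 53, so that the ranges did not overlap, with medians of 55.8% and 44.6%. The median over all protein-coding genes was 54.7%. Pcdhb starts were lowest, with a median of 41.3%, against 45.1% for the non-C-type Pcdha starts and 46.9% for the non-C-type Pcdhg starts. CpG content, as the ratio of observed to expected CpG, did not separate the groups: it was 0.233 to 0.797 at C-type starts, lowest at Pcdhgc5, and 0.158 to 0.864 at the others.

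Called peaks followed base composition across the genome as well. Among genes outside the clusters, with a cut of 50% GC set after these values were seen, a peak was called at 11.9%, 22.1%, 20.9% and 23.4% of the 7088 starts under 50% GC (WT replicates 1 and 2, then Fam5snv/snv replicates 1 and 2) and at 75.9% to 91.3% of the 14793 starts at or above it. The 53 clustered starts under this value had 0%, 5.66%, 0% and 7.55%, lower than the genes of like composition in each library. The 5 at or above it are the C-type genes. The part of base composition in the pattern was not tested.

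Part of the sequence around these starts is shared between paralogues. Of the 31-base words within 1 kb of a start, a median of 91.9% occurred once in the genome at the 53 non-C-type starts (73.2% to 100% by gene), 100% at the C-type starts and 99.2% at 453 other coding genes of chromosome 18. The non-C-type Pcdha starts were lowest, with a median of 88.5%, and Pcdhb starts had 99.5%. How the alignment treated reads that match several sites is not given in the sources used here, and its part in the absence of peaks was not tested.

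The AGGTCA core that NR2F1 and related receptors bind was searched on both strands within 500 bp of each start. It was found at 1 of 5 C-type starts (Pcdhac2), at 16 of the other 53 (30.2%) and at 42.0% of all protein-coding starts. Over whole regions, 55.6% of the 9 tested ones held the core, beside 75.0% of all tested regions. This came to 0.468 and 0.828 cores per kb. The tested regions at Pcdhac1, Pcdhac2 and Pcdhgc3 held 0, 1 and 3. A consensus for CTCF, the insulator protein that works at these clusters, was found in 0 of 58 of these windows and in 1.03% of all. A match is a description of letters and not a bound site, and a site that departs from the consensus would be missed. For CTCF, 58 windows are too few to tell 0 from 1.03%.

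In the Pcdha cluster, only the 2 C-type genes had a called peak at the start, in all 4 libraries alike. Pcdhac1 starts at position 37090013, and its region, chr18:37089297-37090998, covers the start and the beginning of its variable exon. From WT replicates 1 and 2 it took 19 and 51 cut sites, and from Fam5snv/snv replicates 1 and 2 it took 46 and 128, or 6.66, 17.9, 6.29 and 16.2 CPM. The 2 libraries numbered 2 were above the 2 numbered 1 in both genotypes, and the peak was 315 and 611 bp wide in the low libraries and 1470 and 1656 bp wide in the high ones.

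Pcdhac2, the last variable gene of the cluster (start 37143503; region chr18:37143197-37145640), had the highest summed signal of the Pcdha genes. Its region held 45 and 53 cut sites in WT and 138 and 159 in Fam5snv/snv. This came to 15.8, 18.6, 18.9 and 20.1 CPM, the most even of the C-type promoters. Pcdha1, the first gene of the cluster, had no called peak at its start, as had the other 11 non-C-type genes. The only Pcdha variable exons that a peak touched elsewhere were those of Pcdha1 and Pcdha6, both in WT replicate 2 only, and the Pcdha1 peak held 0 cut sites.

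Past the C-type genes, signal within Pcdha lay between constant exons 2 and 3, not on a constant exon. None of the 3 constant exons (chr18:37156155-37156213, 37159265-37159353 and 37184946-37187657) was touched by a peak in any library. Between constant exons 2 and 3, 5.74 kb before exon 3, a region at chr18:37177876-37179202 that also holds the start of the noncoding gene Gm10544 had a peak in all 4 libraries. The WT values were 8.76 and 16.2 CPM and the Fam5snv/snv values 14.8 and 13.5 CPM (25, 46, 108 and 107 cut sites), with only WT replicate 1 low.

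The region of highest signal outside Pcdhg, and the densest of the 9 tested, lay past the Pcdha cluster. It is chr18:37217103-37218624, 29.4 kb after constant exon 3, between Pcdha and Pcdhb and with no gene start inside. Replicates 1 and 2 gave 31.9 and 30.2 CPM for WT and 23.5 and 32.8 CPM for Fam5snv/snv, from 91, 86, 172 and 259 cut sites, so that the genotypes overlapped. Per kb of called peak its mean over the 4 libraries was 21.0 CPM, against 10.2 to 17.2 CPM in the other tested regions. Over the 4 libraries its mean was above 71.7% of all tested regions, and it alone of the 9 tested regions held a match to the CTCF consensus, which 6.84% of all tested regions hold.

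The Pcdhb cluster had almost no called NR2F1 peaks. Of 22 promoters, 1 had a called peak in 1 library, Pcdhb8 in WT replicate 2, where it was 166 bp wide with 4 cut sites. The 3 further peaks in this span, all of WT replicate 2, brought the total over the cluster to 13 cut sites. The other libraries are listed at 0, as they had no called peak there. Pcdhb1, the first gene of the cluster, and Pcdhb22, the last, had no called peak. Between Pcdhb and Pcdhg, the promoter of Taf7, a subunit of the general transcription factor TFIID, had a peak in all 4 libraries (chr18:37643906-37644771). Replicates 1 and 2 gave 9.81 and 7.03 CPM for WT and 13.8 and 10.4 CPM for Fam5snv/snv, from 28, 20, 101 and 82 cut sites.

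**Figure D2:**
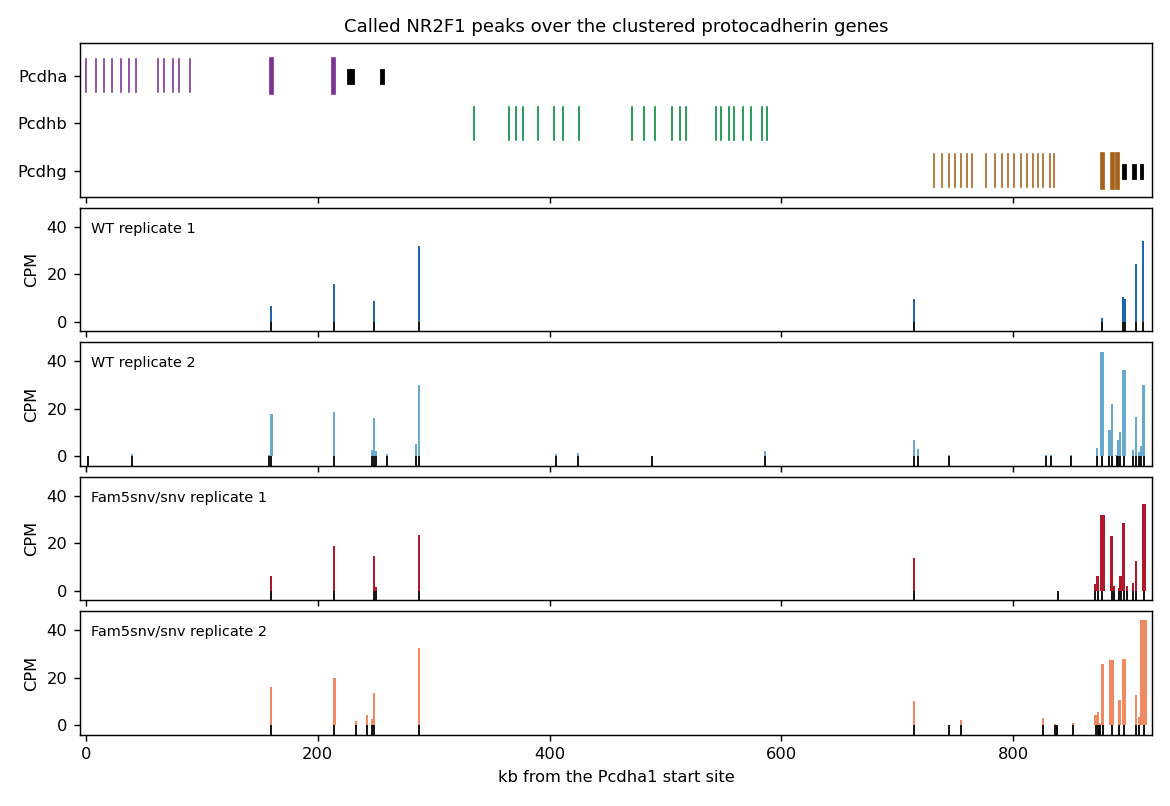
Called NR2F1 peaks over the 3 clusters, with distance from the Pcdha1 start (kb) on the x axis and, for each of the 4 libraries, the CPM of each peak as a bar (narrow peaks are widened to be seen) and a tick under every peak. In the top panel thin lines are gene starts, thick lines C-type starts and black boxes constant exons. Bars stand at the C-type starts, between Pcdha constant exons 2 and 3, on and between the Pcdhg constant exons, past Pcdha and at Taf7. The Pcdhb span holds ticks in WT replicate 2 only.

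In the Pcdhg cluster, signal lay at the 3′ end, over the C-type genes and the constant exons. Among the 19 non-C-type promoters, a peak was called at 2 in WT replicate 2 (Pcdhga3 and Pcdhgb8) and at 4 in Fam5snv/snv replicate 2 (Pcdhga3, Pcdhga4, Pcdhga11 and Pcdhga12), with 0 in the other 2 libraries. The largest, at Pcdhga11, was 685 bp wide with 25 cut sites (3.16 CPM), and Pcdhga4 had 17. The others held 0 to 6 cut sites, and Pcdhga3, called in both libraries, had 2 and 0 cut sites in peaks of 50 and 4 bp. Pcdhga1, the first gene of the cluster, had no called peak.

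Pcdhgc3, the first of the C-type genes in this cluster (start 37806364), had the highest summed signal of all 58 promoters, with a mean of 25.8 CPM over the 4 libraries. Its region, chr18:37805039-37808856, which also holds the start of the antisense gene BC037039, held 4 and 125 cut sites in WT and 234 and 203 in Fam5snv/snv, with the 2 genes' shares not told apart. This came to 1.40, 44.0, 32.0 and 25.7 CPM. In WT replicate 1 the peak was 105 bp wide, against 2806 to 3818 bp in the other libraries, so that this library lies far below the other WT library and below both mutant ones. Per kb of called peak the 4 values were 13.3, 13.3, 8.38 and 9.15 CPM, with WT replicate 1 level with WT replicate 2, and their mean, 11.0, was below that of Pcdhac1 (13.3) and Pcdhac2 (11.8).

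Pcdhgc4 and Pcdhgc5 had no called peak in WT replicate 1. The Pcdhgc4 region (chr18:37812585-37816736; start 37815079) held 0 and 95 cut sites in WT and 170 and 219 in Fam5snv/snv, or 33.4, 23.2 and 27.7 CPM in the 3 libraries with a peak. The region at Pcdhgc5, the last variable gene (chr18:37819839-37822980; start 37819513), held 0 and 49 cut sites in WT and 55 and 86 in Fam5snv/snv, or 17.2, 7.52 and 10.9 CPM. Its signal was the lowest of the Pcdhg C-type promoters in each of these 3 libraries, and in Fam5snv/snv replicate 1 its peaks lay beyond 1 kb from the start. Neither region entered the test between genotypes, which needed a peak in every library.

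The Pcdhg constant exons differed from those of Pcdha in carrying peaks. The region over constant exon 1, chr18:37823645-37827708, gave 20.3 and 36.2 CPM for WT and 28.6 and 27.8 CPM for Fam5snv/snv (58, 103, 209 and 220 cut sites), and holds the start of the noncoding gene Gm38182. Constant exon 2 (chr18:37833265-37833353) was touched by 1 peak of 7 cut sites, in WT replicate 2. Between exons 2 and 3, chr18:37835038-37837041 gave 24.5 and 16.5 CPM for WT and 12.4 and 12.9 CPM for Fam5snv/snv, from 70, 47, 91 and 102 cut sites. This was the tested region of the interval with both mutant libraries below both WT libraries.

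The region over constant exon 3, chr18:37839592-37845343, had the highest summed signal of the interval, above 78.7% of all tested regions in mean signal. It runs 3.47 kb past the exon into the 3′ end of Diaph1, the neighbouring gene for an actin-nucleating formin, and the 2 genes' shares of it cannot be told apart. Replicates 1 and 2 gave 35.0 and 34.1 CPM for WT and 36.6 and 44.3 CPM for Fam5snv/snv, from 100, 97, 268 and 350 cut sites. Both mutant libraries lay above both WT ones, with peaks of 1645, 3675, 3303 and 5752 bp in the 4 libraries in the same order.

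**Figure D3:**
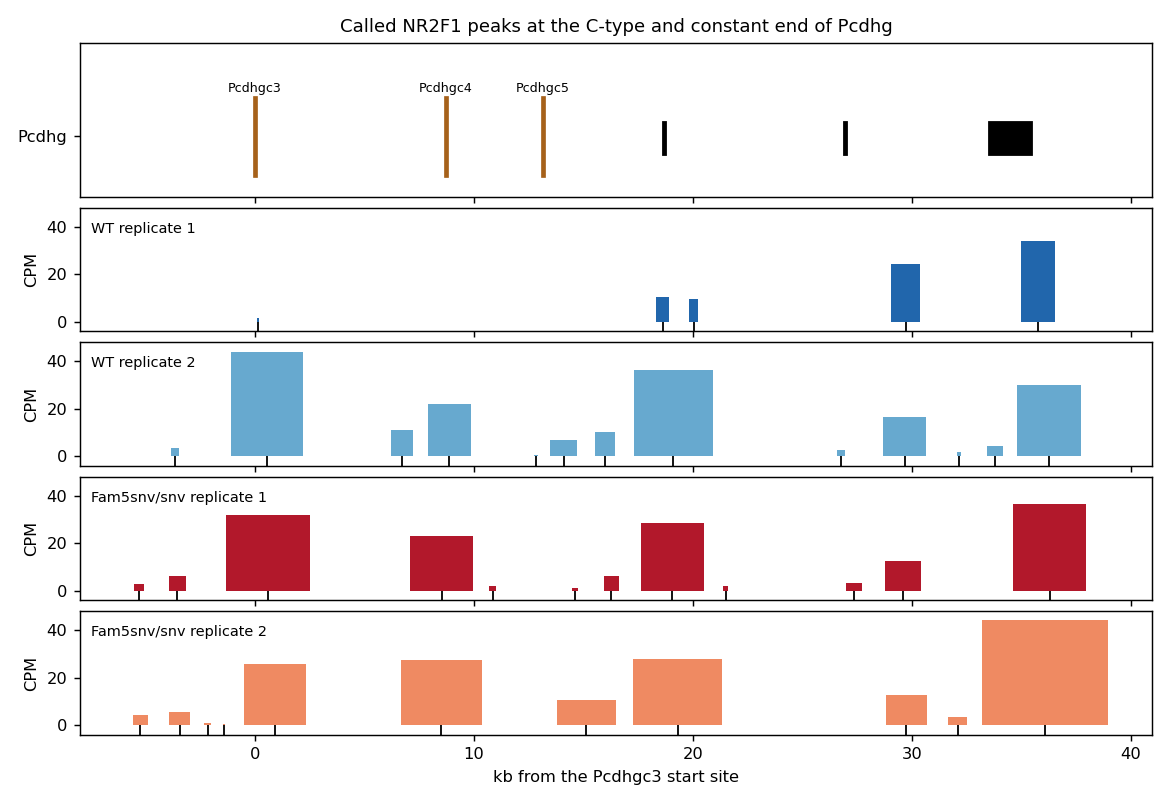
Called NR2F1 peaks at the 3′ end of Pcdhg, with distance from the Pcdhgc3 start (kb) on the x axis, each peak drawn at its called width with its CPM as height, and gene starts (lines) and the 3 constant exons (black) in the top panel. WT replicate 1 has a 105 bp peak at Pcdhgc3 and none at Pcdhgc4 or Pcdhgc5, but peaks at constant exons 1 and 3 as the other libraries have.

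The 3 clusters were compared by the summed signal of the regions at their starts. Pcdha starts gave 22.4 and 36.6 CPM for WT and 25.2 and 36.3 CPM for Fam5snv/snv, over 1199 to 4095 bp of called peak. Pcdhg starts gave 1.40 and 96.7 CPM for WT and 62.7 and 70.3 CPM for Fam5snv/snv, over 105 to 10510 bp. Pcdhb was listed at 0 in 3 libraries and had 1.41 CPM in WT replicate 2. Per gene, Pcdhg was below Pcdha by 4.65 on the log2 scale in WT replicate 1 and above it by 0.75, 0.67 and 0.30 in WT replicate 2 and Fam5snv/snv replicates 1 and 2. The mean difference was −0.73 ± 2.62 (SD, n = 4; exact sign-flip test, p = 1.0), and without WT replicate 1 it was 0.57, so that its direction rests on that library. Per kb of called peak the difference was −0.32.

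Variable and constant exons were compared by the signal density of the peaks that overlap them, averaged over exons, with a pseudocount of 0.1 CPM per kb. An exon without a called peak counted as 0, so that these means also follow the share of exons with a peak. The variable exon was taken as the exon that holds the gene start, which at Pcdhb6 and Pcdhb8 was a short one. The 58 variable exons had means of 0.902 and 1.82 CPM per kb in WT and 0.740 and 0.929 CPM per kb in Fam5snv/snv. The 6 constant exons had 6.75, 4.47, 3.50 and 2.42 CPM per kb in the same order. The variable exons were lower in 4 of 4 libraries, with a mean difference of −1.85 ± 0.73 on the log2 scale (SD, n = 4; exact sign-flip test, p = 0.125, the smallest possible). The constant value came from Pcdhg alone, and the direction turned within Pcdha, where the variable exons had 1.29 to 2.78 CPM per kb and the constant exons were at 0 in all 4 libraries. It also turned for the C-type genes, whose variable exons had 10.5, 10.8, 8.59 and 7.71 CPM per kb, above the 6 constant exons in 4 of 4 libraries. The Pcdhg constant exons alone had 13.5 CPM per kb in WT replicate 1 and 4.85 to 8.94 CPM per kb in the other libraries. Against these the C-type exons were higher in 3 of 4 libraries, and only WT replicate 1 kept the order. In Fam5snv/snv replicate 1 this rested on Pcdhg constant exon 2, at 0, since exons 1 and 3 had 9.89 and 11.1 CPM per kb. Without the Pcdhb exons, an alternative chosen after seeing the data, the difference was −1.29.

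No clustered protocadherin region differed between the genotypes by the test. With edgeR's quasi-likelihood test and Benjamini-Hochberg adjustment over all 35770 regions, 0 of the 9 tested regions passed an adjusted p of 0.05, as did 0 of all tested regions (0%). At an unadjusted p under 0.05, 0 of 9 passed, where 5.29% of all regions were higher and 3.37% lower in Fam5snv/snv. DESeq2 called 0 of the 9 and 366 higher and 194 lower of all. The median log2 fold change was 0.18 over the 9 and 0.02 over all tested regions. Since cells were not typed, a different mix of cells and a different signal per cell cannot be told apart in these sums.

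Both Fam5snv/snv libraries lay above both WT libraries in 3 of the 9 regions, at Pcdhac2, Taf7 and Pcdhg constant exon 3, beside 23.2% of all tested regions. They lay below in 1 of 9, beside 21.4% of all. That region, between Pcdhg constant exons 2 and 3, had the smallest unadjusted p of the 9, with a log2 fold change of −0.70 ± 0.36 (approximate SE, n = 2 per genotype; edgeR adjusted p = 0.601). Of the regions with a positive estimate, those at Taf7 (0.52 ± 0.47), Pcdhg constant exon 3 (0.23 ± 0.22) and Pcdhac2 (0.18 ± 0.32) had the smallest p, with edgeR adjusted p of 0.730, 0.756 and 0.872. Among negative estimates, the region past Pcdha (−0.14 ± 0.27) and Pcdhac1 (−0.13 ± 0.65) came next (edgeR adjusted p = 0.881 and 0.963).

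A region upstream of Pcdhgc3, named after its values were seen, had a called peak in both Fam5snv/snv libraries and in neither WT library (chr18:37800778-37801449; 0, 0, 21 and 35 cut sites). Without the need for a peak in every library, it entered the test only through the Fam5snv/snv libraries, where it was high. Its p-value is therefore not given. A WT library without a called peak there is listed at 0, so that no fold is given either.

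For Pcdhgc3 the estimate was 0.35 ± 0.96 and rested on single WT libraries. It was −0.62 without WT replicate 1 (edgeR adjusted p = 0.171) and 4.36 without WT replicate 2 (edgeR adjusted p = 1.08e-04), when only the 105 bp peak of WT replicate 1 stood for WT. At the level of clusters, the log2 difference Fam5snv/snv minus WT was 0.08 for Pcdha (pooled SD 0.44, n = 2 per genotype) and 2.51 for Pcdhg (pooled SD 3.06), both with an exact permutation p of 1.0, where 2 against 2 libraries cannot go below 0.333. Without WT replicate 1 the values were −0.28 and −0.54, and per kb of called peak they were −0.50 and −0.72, so that the direction of both turned with that library and with the width of the peaks. The Pcdha value was also −0.19 without Fam5snv/snv replicate 2. The approximate 95% interval of the log2 fold change ran from −0.56 to 0.92 at Pcdhac2, the narrowest of the 3 tested C-type promoters. Differences within this interval cannot be told apart by these data.

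**Figure D4:**
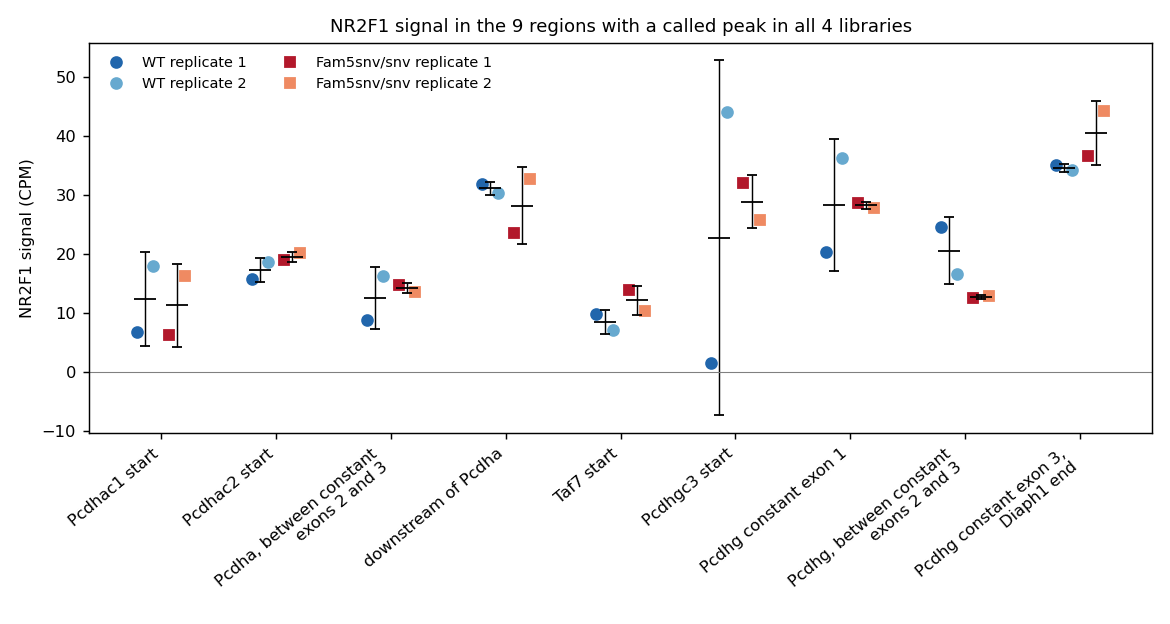
NR2F1 signal (CPM) in the 9 regions with a called peak in all 4 libraries, with 1 point per library and black bars for the mean ± SD of the 2 libraries of each genotype. The points of the genotypes overlap in 5 of the 9 regions, and at the Pcdhgc3 start WT replicate 1 (1.40 CPM) lies far under WT replicate 2 (44.0 CPM).

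Few cells had signal at any of these promoters. At least 1 cut site in a C-type promoter region was found in 47 of 2572 barcodes of WT replicate 1 (1.83%), 154 of 1377 of WT replicate 2 (11.2%), 259 of 2274 of Fam5snv/snv replicate 1 (11.4%) and 327 of 2740 of Fam5snv/snv replicate 2 (11.9%). After each barcode was thinned to 567 cut sites, with 641 shallower barcodes of WT replicate 1 left out, the shares were 1.14%, 5.30%, 3.03% and 3.58%. Thinning evened out depth but not where cut sites could be counted. WT replicate 1 had no called peak at Pcdhgc4 or Pcdhgc5, and 105 bp at Pcdhgc3 against 2806 to 3818 bp in the other libraries. The regions at the other 53 promoters had a cut site in 0, 6, 0 and 33 barcodes. Of the barcodes with a C-type cut site, those with cut sites in 2 C-type regions numbered 0, 14, 33 and 38, and those with 3 or more 0, 4, 2 and 1. Signal at this depth is too sparse to say which promoters one cell holds together.

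The machinery around these genes was followed at its promoters. Of 17 genes for chromatin architecture and silencing (CTCF, cohesin and its loaders, DNA methyltransferases and histone silencers), 15 had a called promoter peak in all 4 libraries, where 54.9% of all protein-coding genes did. Their median was 39.5 CPM. The highest were Wiz, a partner of H3K9 methyltransferases, at 82.7 CPM and Dnmt3a, a DNA methyltransferase, at 67.5 CPM. Of 15 tested, 0 were called and 2 had an unadjusted p under 0.05, both lower in Fam5snv/snv, where 5.29% of all regions were higher and 3.37% lower. These were the cohesin regulators Pds5a (65.2 and 46.4 CPM in WT, 29.5 and 29.5 CPM in Fam5snv/snv) and Wapl (45.5 and 48.5 CPM against 34.3 and 29.6 CPM), each with an edgeR adjusted p of 0.573. The median log2 fold change of the list was −0.32, beside 0.02 over all tested regions. The motor neuron markers Isl1, Hoxb1, Tbx20 and Chat with Slc18a3, which share a region, had log2 fold changes of 0.23, 0.46, 0.06 and 0.40. The median over the 7 tested of 9 markers of other cells was −0.33, with 3 of the 7 estimates positive and 0 called. The part of these markers in the result was not tested.

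Among protocadherin genes outside the clusters, 7 of 12 had a called promoter peak in all 4 libraries, where 3 of the 58 clustered genes and 54.9% of all protein-coding genes did, with 7, 12, 11 and 12 in the libraries taken singly, which again sets WT replicate 1 apart. The highest were Pcdh8 at 73.6 CPM and Pcdh1 at 65.2 CPM in mean signal, against 25.8 CPM at Pcdhgc3. Of 9 tested, 0 were called and 0 had an unadjusted p under 0.05. Their smallest p belonged to Pcdh9 and Pcdh10, with log2 fold changes of −0.31 ± 0.29 and −0.12 ± 0.22. Over this list the median log2 fold change was −0.05, beside 0.02 over all tested regions.

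The cytoplasmic partners of clustered protocadherins were taken as focal adhesion kinases, the kinase Fyn and the WAVE actin-regulatory complex. Of these 10 genes, 9 had a called promoter peak in all 4 libraries, beside 54.9% of all protein-coding genes. Wasf1, the WAVE subunit that activates actin branching, was highest with a mean of 103 CPM, followed by Cyfip2 at 73.1 CPM. Ptk2b, one of the kinases, had a called peak only in Fam5snv/snv replicate 2, with 1 cut site. Of 9 tested, 0 were called and 1 had an unadjusted p under 0.05, Wasf1, with WT at 134.9 and 117 CPM and Fam5snv/snv at 80.9 and 80.2 CPM (edgeR adjusted p = 0.573), where 3.37% of all regions were lower. Abi2 had the next smallest p, with a log2 fold change of −0.41 ± 0.22 (edgeR adjusted p = 0.606). The median log2 fold change of the list was −0.39, beside 0.02 over all tested regions and −0.33 over the markers of other cells.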

How the data were processed

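For each library the authors deposited called peaks without heights, barcodes called as cells, and counts, the number of cut sites that each barcode has in each peak, made on mm10 with Cell Ranger ATAC per the labels (the paper's methods and the matrix header name different versions). Counts were summed over barcodes, without a further cell filter, a doublet caller or clustering. Peaks overlapping by 1 bp were merged. Regions called in all 4 libraries that reached 10 cut sites in 2 or more of them were tested with edgeR 4.0.16 (quasi-likelihood, TMM, no block) in R 4.3.3; DESeq2 1.42.0, other scalings and filters, a replicate block and leaving out each library were alternatives. The fit was tested on simulated data. Genes came from GENCODE M21. GENCODE gives the name Pcdha11 to a second gene, so both were kept by identifier. Named genes were the highest and lowest of each cluster, the C-type, first and last genes, the regions of smallest p and constant exons, and 2 of highest signal and 2 of smallest p per list. The genes and lists were chosen with earlier results of these data known. Part of the motor neuron marker list is not reported here.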

Additional observations from a re-analysis of the deposited data

How the results depend on the processing

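Of 101 values of the log2 fold change of the 9 regions under alternatives, 100 stayed on their side of the adjusted threshold and 15 changed sign without passing it. The count of regions called in the interval was 0 under every alternative but one, and ranged from 0 to 1 when libraries were left out in turn, the 1 being Pcdhgc3 without WT replicate 2. Leaving out WT replicate 1 or WT replicate 2 gave 1492 and 4094 higher calls among all tested regions, and 419 and 2221 lower calls, in fits where the lone WT library is assumed to vary like the others. Leaving out Fam5snv/snv replicate 1 or 2 gave 0 calls among all tested regions, with 376 and 310 higher and 92 and 123 lower at an unadjusted p under 0.05.

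The Pcdha difference between genotypes, 0.08, was 1.09 when libraries were scaled by their barcodes, which moves the median of all regions to 0.97, and −0.50 per kb of called peak. It ranged from −0.28 to 0.43 when libraries were left out in turn, reversing without WT replicate 1 (−0.28) and without Fam5snv/snv replicate 2 (−0.19). The Pcdhg difference, 2.51, was −0.72 per kb of called peak and ranged from −0.54 to 5.57, reversing only without WT replicate 1. The difference of Pcdhg from Pcdha ranged from −1.23 to 0.57, reversing without that library. The share of Pcdha genes with a peak was 16.1% in a 2 kb window against 14.3%. The exon difference ranged from −2.06 to −1.55 and the C-type share of cut sites from 97.4% to 99.3% when libraries were left out.

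Same-numbered libraries did not deviate together over tested regions (correlation 0.028). The labels do not say what a shared number marks, and a value from so few libraries cannot decide it. With the replicate block, 0 regions were called in the interval and over all, with 1671 higher and 965 lower at an unadjusted p under 0.05 against 1892 and 1206 without it. The blocked mean differences of the clusters were 0.08 (SD 0.13 over the numbers) for Pcdha and 2.51 (SD 4.20) for Pcdhg.

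No log2 value exists for Pcdhb against the other clusters or between genotypes, since 3 libraries are at 0. Peaks called separately and counts of 4 to 350 cut sites per library in the 9 regions limit the precision.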
